A study of Mus musculus with 17 samples.

Results

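The mitochondrial carrier family, Slc25, was examined in livers of mice kept on a high-fat diet. Members were all genes whose symbol in the deposited RNA table or whose nearest start site in the deposited H3K9ac table was named Slc25a and a number, apart from Slc25a1, Slc25a15 and Slc25a20, together with Ucp2, an uncoupling protein of the same family. The RNA table held 38 such genes among 12334, and the H3K9ac table held 35 promoter regions of 32 members among 13830 promoter regions and 57499 regions in all. A promoter region is one whose centre lies within 1000 bases of a start site. By symbol, 45 members are listed in RefSeq (GRCm38.p6). Of these, 7 had no RNA value here, namely Slc25a2, Slc25a18, Slc25a31, Slc25a41, Slc25a43, Slc25a53 and Slc25a54. These 7 were therefore not tested, and why they are absent was not examined. The lowest mean count of any gene in the RNA table was 13.875. RNA and a promoter region were both present for 30 members, and only a promoter region for Slc25a43 and Slc25a53. RNA without a promoter region was present for Slc25a10, Slc25a28, Slc25a29, Slc25a37, Slc25a40, Slc25a45, Slc25a47 and Ucp2. The centre rule left out wide regions that cover the start of Slc25a10, Slc25a45, Slc25a47 and Ucp2.

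Carriers of this family sit in the inner mitochondrial membrane, where each moves a particular metabolite, nucleotide, cofactor or ion between the cytosol and the matrix. They are built from repeated pairs of membrane helices, and most work as exchangers. In hepatocytes they link the urea cycle, gluconeogenesis, lipid synthesis and oxidative phosphorylation across the membrane, since these pathways run partly in the cytosol and partly in the matrix.

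The study fed C57BL/6 mice, an inbred laboratory strain, with a high-fat diet (HFD), in which 60% of the calories came from fat, or with a control diet (CD), in which 18% did, for 10 weeks. Polyadenylated RNA was sequenced from 4 HFD livers (A to D) and 4 CD livers (A to D). Histone H3 acetylated at lysine 9 (H3K9ac), a mark found at active promoters, was measured by chromatin immunoprecipitation in 3 HFD livers (A, B and D) and 3 CD livers (A, C and D). A CD input library and 2 CD libraries of open chromatin were not analysed here, and the labels do not say whether a letter marks the same animal in both assays or diets.

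Library totals were 31802893 to 37596560 counts for RNA and 9255635 to 12149497 counts for H3K9ac. All 12 hepatocyte markers on the list were measured, and together they made up 110400 to 130800 CPM (counts scaled to library size) in HFD livers and 97730 to 111100 CPM in CD livers. Pck1 and Tdo2 of this list were called higher in HFD. An unadjusted p under 0.05 in edgeR was found for 6 of the 12, DESeq2 called 4, and the median log2 change was 0.34. The lists for other cells summed to far less. Kupffer cell and macrophage markers (13 of 14 symbols measured) gave 182.9 to 492.5 CPM in HFD livers and 238.3 to 348.6 CPM in CD livers. The symbol without values, Emr1, is an older name of Adgre1, which was measured. Sinusoidal endothelial markers (12 of 12) gave 178.6 to 350.6 CPM in HFD livers and 212.6 to 292.9 CPM in CD livers, and stellate cell markers (12 of 12) gave 207.9 to 431.0 CPM in HFD livers and 292.4 to 347.8 CPM in CD livers. No gene of these 3 lists was called by edgeR. An unadjusted p under 0.05 was found for 0 of the Kupffer, 0 of the endothelial and 4 of the stellate genes, and DESeq2 called 0, 0 and 1 of them. Cholangiocyte markers (6 of 7) summed to 57.4 to 83.7 CPM in HFD livers and 84.6 to 100.5 CPM in CD livers, and Sox9 of that list was called lower. Their median log2 change was -0.73, with 4 at an unadjusted p under 0.05 in edgeR and 2 called by DESeq2. Of the lymphocyte list 3 of 7 genes were measured, and none was called (0 at an unadjusted p under 0.05 in edgeR, 0 by DESeq2). Of the erythroid list 2 of 10 were measured, and Slc4a1 was called lower. The adipocyte and neutrophil lists had no measured gene. Livers are mixtures, and in bulk RNA fewer cells of a type and less RNA per cell cannot be told apart.

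The carriers spanned a wide range of RNA levels, and the order was nearly the same under both diets. Per gene length, the member median was 11.5 FPKM (fragments scaled to gene length and library size) in HFD livers and 10.9 FPKM in CD livers, against 5.31 FPKM in HFD livers and 5.33 FPKM in CD livers over all genes of the table. The summed level of the 38 members was 1524 ± 189 FPKM in HFD livers and 1425 ± 104 FPKM in CD livers (SD, n = 4 each), and the 4 libraries of the diets overlapped. The 8 members with the highest level in CD livers carried 77.0% of this sum in HFD livers and 75.2% in CD livers. As a description across the 38 genes, Spearman's rho between the levels in HFD and CD livers was 0.98. Neighbours in the order were seldom separate: in 32 of the 37 neighbouring pairs of the CD order, the libraries of the 2 genes overlapped.

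**Figure D1:**
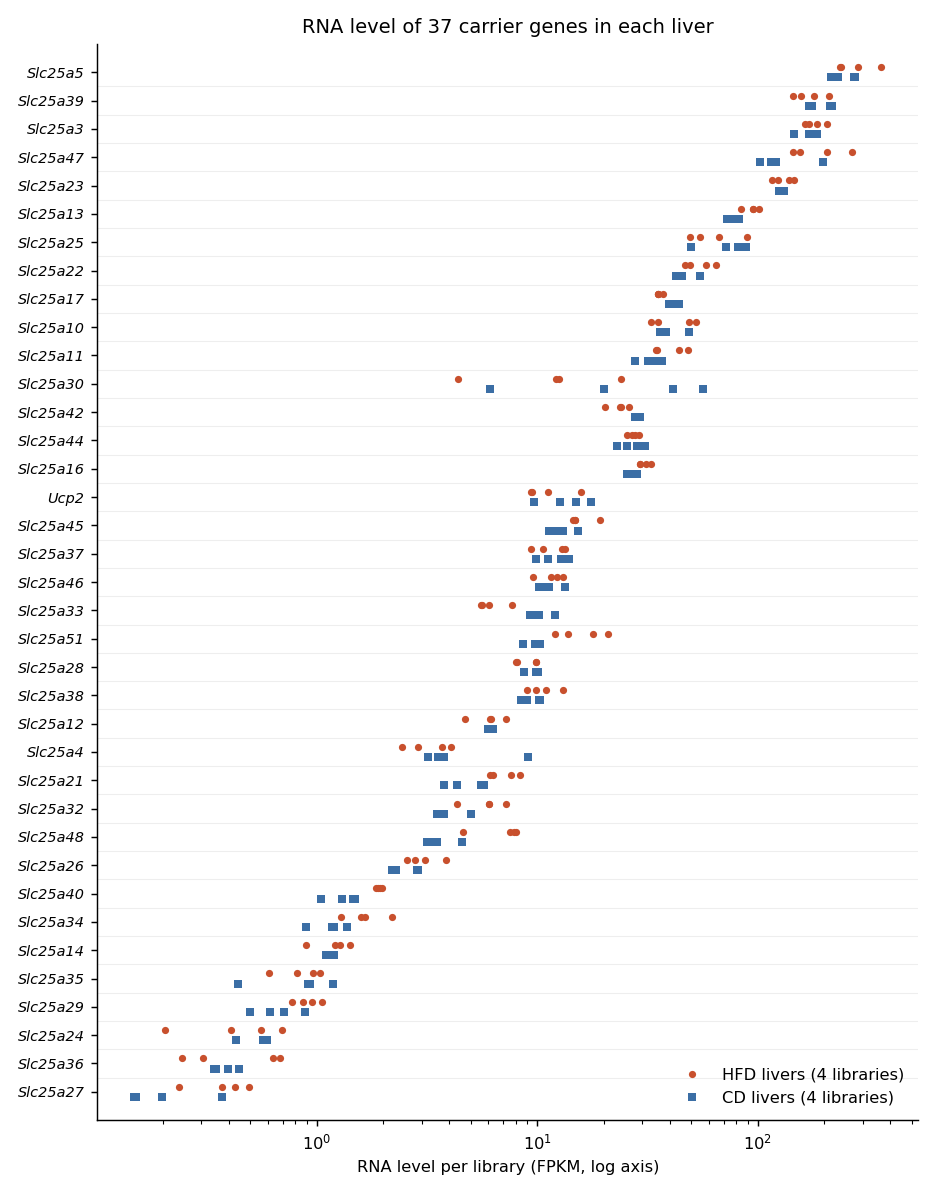
RNA level in FPKM on a log axis for 37 carrier genes, ordered by their mean in CD livers, with 1 point per library (HFD circles above, CD squares below). Slc25a5 stands at the top and Slc25a27 at the bottom in both diets, and Slc25a30 has the widest spread within a diet.

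The top of the order was held by carriers of oxidative phosphorylation and of glutathione. Slc25a5, an ADP/ATP translocase that exports ATP to the cytosol, had 362.9, 286.4, 237.8 and 237.4 FPKM in HFD livers A to D, against 277.2, 215.5, 231.3 and 274.5 FPKM in CD livers A to D. Slc25a3, which brings in the phosphate for ATP synthesis, had 205.5, 186.4, 171.5 and 163.8 FPKM in HFD livers, against 186.2, 145.4, 170.7 and 181.8 FPKM in CD livers. Slc25a39, a carrier of glutathione into the matrix, had 210.0, 180.7, 156.7 and 144.4 FPKM in HFD livers, against 217.3, 171.3, 177.2 and 212.1 FPKM in CD livers. The diets overlapped for all 3 genes, and in each of them HFD liver A was the highest HFD liver. Reads of Slc25a5 could be shared with its close paralog Slc25a4 and with processed copies, so the level of Slc25a5 is uncertain to that extent. Slc25a47, a carrier found mainly in liver, had 267.3, 205.2, 144.9 and 154.9 FPKM in HFD livers, against 121.2, 115.4, 102.8 and 197.4 FPKM in CD livers. CD liver D lay among the HFD livers for this gene, and the other 3 CD livers lay below all of them.

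The next 4 members of the order serve ATP, aspartate and glutamate. Slc25a23, a calcium-regulated carrier of Mg-ATP and phosphate, had 138.3, 146.6, 116.6 and 123.4 FPKM in HFD livers, against 125.4, 131.6, 125.7 and 125.5 FPKM in CD livers. Slc25a25, a carrier of the same kind, had 67.0, 49.4, 89.8 and 54.6 FPKM in HFD livers, against 81.2, 88.3, 49.8 and 71.9 FPKM in CD livers. Slc25a22, a glutamate carrier, had 64.4, 58.3, 47.0 and 49.2 FPKM in HFD livers, against 45.3, 42.5, 45.1 and 54.6 FPKM in CD livers. The diets overlapped for these 3 genes. Slc25a13 (citrin), which exports aspartate for the urea cycle and the malate-aspartate shuttle, had 84.1, 101.7, 95.3 and 95.5 FPKM in HFD livers, against 72.4, 74.2, 82.3 and 75.5 FPKM in CD livers, so that every HFD liver lay above every CD liver.

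The diets were then compared gene by gene, with 1 fit over the whole RNA table. The quasi-likelihood test of edgeR, adjusted by Benjamini-Hochberg over all genes, called 3 of the 38 members at an adjusted p under 0.05, which is 7.89% of them. Over all genes the same test called 897 of 12334, or 7.27%, so the share among the carriers was near the background. Slc25a48 and Slc25a51 were higher in HFD livers and Slc25a33 was lower. The median log2 change was 0.08 over the members and 0.01 over all genes, with 25 members above 0 and 13 below, and the median absolute log2 change was 0.25 over the members and 0.16 over all genes. An unadjusted p under 0.05 was found for 12 members, or 31.6%, and for 20.4% of all genes.

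**Figure D2:**
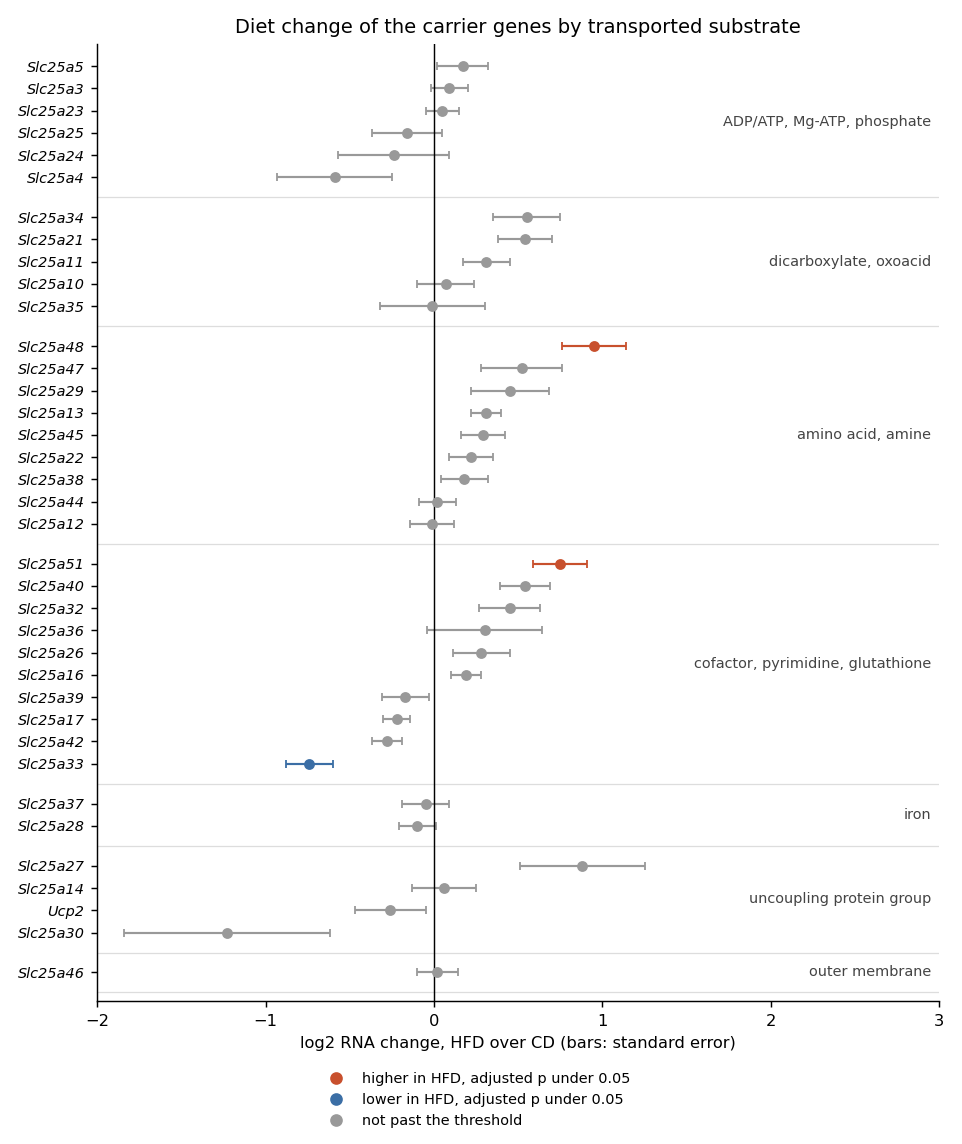
log2 RNA change of 37 carrier genes, HFD over CD, with the standard error, grouped by assigned substrate, which is not settled for every gene. Slc25a48 at 0.95 and Slc25a51 at 0.75 are past the threshold to the right and Slc25a33 at -0.74 to the left, and the long bar of Slc25a30 reflects its spread between livers.

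Slc25a33 carries pyrimidine nucleotides into mitochondria, where they are used for DNA and RNA synthesis. Its RNA had 14.4, 10.4, 10.5 and 11.3 CPM in HFD livers A to D, against 22.6, 19.1, 18.6 and 17.4 CPM in CD livers A to D. Every HFD liver lay below every CD liver. The log2 change was -0.74 (SE 0.14), with an adjusted p of 0.00864 in edgeR's quasi-likelihood test. Slc25a36, the other pyrimidine nucleotide carrier, was expressed at a low level, with 0.468 ± 0.225 FPKM in HFD livers and 0.383 ± 0.0481 FPKM in CD livers (SD, n = 4 each), and a log2 change of 0.30 (SE 0.34).

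Slc25a48 is a carrier needed for the entry of choline into mitochondria. Its RNA had 6.84, 12, 11.7 and 11.2 CPM in HFD livers, against 4.997, 4.69, 6.76 and 5.22 CPM in CD livers. HFD liver A lay just above the highest CD liver, and the other 3 HFD livers lay well above all CD livers. The log2 change was 0.95 (SE 0.19, adjusted p = 0.0149, edgeR). The call depended on single libraries: the adjusted p was 0.0564 without HFD liver B, 0.0516 without CD liver A and 0.0549 without CD liver B, with log2 changes of 0.86, 0.91 and 0.88 (edgeR).

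Slc25a51 is the carrier that brings NAD+ into the mitochondrial matrix. Its RNA had 79.0, 92.8, 61.1 and 53.4 CPM in HFD livers, against 43.8, 45.6, 38.1 and 43.3 CPM in CD livers. All HFD livers lay above all CD livers, and the HFD livers were spread more widely than the CD livers. The log2 change was 0.75 (SE 0.16, adjusted p = 0.0197, edgeR). The adjusted p was 0.0659 without HFD liver B, 0.0524 without CD liver A and 0.0655 without CD liver C (edgeR). HFD livers A and B had the most Slc25a51 RNA and the least summed stellate marker RNA, at 207.9 and 218.6 CPM against 344.9 and 431.0 CPM in HFD livers C and D. The endothelial sums split likewise, at 178.6 and 201.0 CPM against 350.6 and 344.0 CPM. So did the Kupffer sums, at 182.9 and 280.6 CPM against 319.3 and 492.5 CPM. Hepatocyte sums were higher in A and B, at 130800 and 130500 CPM against 110400 and 119300 CPM. The stellate sums of A and B lay below all CD livers, so the stellate term overlaps in part with diet. With the stellate marker level as a second term, a fit added after the data were seen, the log2 change of Slc25a51 was 0.48 and its adjusted p was 0.0559 (edgeR). It was called with the endothelial term (log2 change 0.78, adjusted p = 0.000669) and with the Kupffer cell and macrophage term (log2 change 0.75, adjusted p = 0.00608), both by edgeR. Slc25a33 and Slc25a48 kept their calls under all 3 terms.

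**Figure D3:**
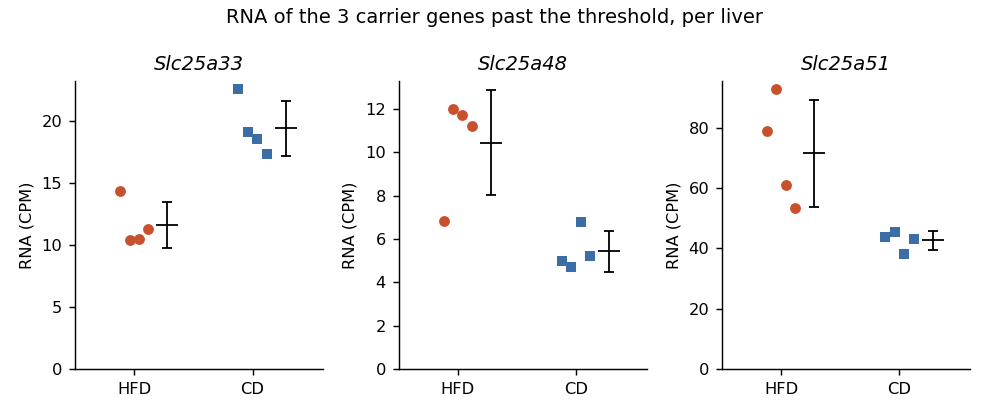
RNA level in CPM of the 3 called carrier genes, with 1 point per liver (HFD left, CD right) and the mean with its SD in black. The diets do not overlap for any of the 3 genes, and HFD liver A at 6.84 CPM of Slc25a48 is the closest to the CD livers.

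The promoters of the called members Slc25a33 and Slc25a48 are printed because their letters lie inside H3K9ac regions measured here. Of the members, 34 genes with 43 promoters were matched by symbol in the RefSeq promoter table (GRCm38.p6), which runs from 250 bases before the start site to 50 after it. Shown are the 250 bases before the start, 5′ to 3′ on the gene's strand, for Slc25a33 (chr4:149774268-149774517, minus strand) and Slc25a48 (chr13:56438105-56438354, plus strand). Both lie wholly inside a promoter region of H3K9ac. Slc25a42 (chr8:70212282-70212531, minus strand) is added because a more distant region of this gene was called. Capitals mark matches on either strand to the CCAAT box (its 5 letters), to GGGCGG as the GC box and to CACGTG as the E-box.
Slc25a33: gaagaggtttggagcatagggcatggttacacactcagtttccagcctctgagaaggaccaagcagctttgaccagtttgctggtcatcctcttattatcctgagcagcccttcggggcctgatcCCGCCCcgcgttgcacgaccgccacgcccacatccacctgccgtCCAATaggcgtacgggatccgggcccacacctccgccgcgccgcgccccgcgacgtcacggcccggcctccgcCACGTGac
Slc25a48: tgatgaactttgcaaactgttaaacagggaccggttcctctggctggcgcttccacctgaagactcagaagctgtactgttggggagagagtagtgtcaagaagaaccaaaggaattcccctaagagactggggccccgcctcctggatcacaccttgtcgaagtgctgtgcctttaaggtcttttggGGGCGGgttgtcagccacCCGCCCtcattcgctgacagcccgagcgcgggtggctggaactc
Slc25a42: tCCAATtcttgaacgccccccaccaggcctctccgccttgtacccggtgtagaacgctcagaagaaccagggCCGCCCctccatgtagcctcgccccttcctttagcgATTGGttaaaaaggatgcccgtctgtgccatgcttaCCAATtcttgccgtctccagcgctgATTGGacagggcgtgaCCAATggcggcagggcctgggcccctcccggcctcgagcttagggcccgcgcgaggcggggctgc

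The Slc25a33 promoter held 1 match to each of the 3 motifs, with first bases at -125 for the GC box, -81 for CCAAT and -8 for the E-box, counted from the start site. The Slc25a48 promoter held 2 GC boxes at -62 and -44 and neither of the other motifs. The Slc25a42 promoter held 5 CCAAT matches, at -249, -142, -106, -81 and -65, and 1 GC box at -178. GC boxes were found in 81.4% of the 43 member promoters and in 35.7% of all 32851 promoters of the same length. CCAAT was found in 48.8% of member promoters and 37.4% of all promoters, and the E-box in 6 of the 43 member promoters and 7.15% of all. Member promoters had a median GC content of 59.0%, against 52.7% over all promoters. AGGTCA, a nuclear receptor half-site, was found in 9.3% of member promoters and 16.3% of all, and TATAAA in 4.65% of member promoters and 13.6% of all. The cyclic AMP response element TGACGTCA was found in 4.65% of member promoters and 1.79% of all, and the core of the NRF1 motif in 4.65% of member promoters and 4.6% of all. The D-box TTATGTAA was found in 0 member promoters and 0.938% of all. A match describes letters only, and promoters of the same gene can overlap.

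Outside the 3 called genes, the changes are given by assigned substrate group, and edgeR called none of these members. DESeq2 also called Slc25a13 (adjusted p = 0.0123), Slc25a21 (adjusted p = 0.0253) and Slc25a40 (adjusted p = 0.0102). Among the 6 carriers of adenine nucleotides and phosphate, the log2 changes were 0.17 (SE 0.15) for Slc25a5, 0.09 (SE 0.11) for Slc25a3 and 0.05 (SE 0.10) for Slc25a23. Slc25a25 had -0.16 (SE 0.21) and Slc25a24, a further Mg-ATP carrier, had -0.24 (SE 0.33). Slc25a4, the translocase of heart and muscle, had -0.59 (SE 0.34), and this value rested on CD liver C, whose 9.97 CPM stood apart from the 3.46 to 4.13 CPM of the other CD livers and the 2.62 to 4.44 CPM of the HFD livers.

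The 5 members of the dicarboxylate and oxoacid group had a median log2 change of 0.31, with none called by edgeR and Slc25a21 called by DESeq2. Slc25a34 and Slc25a35 are placed in it by likeness, since their own substrates are not settled. Slc25a21, a carrier of oxoadipate from lysine and tryptophan breakdown, had 23.1, 17.3, 20.9 and 16.8 CPM in HFD livers, against 15.9, 10.4, 11.9 and 15.3 CPM in CD livers. The diets did not overlap, with a log2 change of 0.54 (SE 0.16, adjusted p = 0.0743, edgeR). Slc25a11, the oxoglutarate-malate exchanger of the malate-aspartate shuttle, had 0.31 (SE 0.14), and Slc25a10, the dicarboxylate carrier, had 0.07 (SE 0.17). Slc25a34 had 0.55 (SE 0.20, adjusted p = 0.146, edgeR), and its close relative Slc25a35 had -0.01 (SE 0.31).

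The 9 members of the amino acid and amine group had a median log2 change of 0.29, with Slc25a48 called. Slc25a47 is counted in this group although its own substrate is not settled. Slc25a13 had a log2 change of 0.31 (SE 0.09, adjusted p = 0.0829, edgeR), while its paralog Slc25a12 (aralar), which was about an order of magnitude lower in level, had -0.01 (SE 0.13). Slc25a47 had 0.52 (SE 0.24, adjusted p = 0.248, edgeR) and Slc25a22 had 0.22 (SE 0.13). Slc25a29, a carrier of basic amino acids, had 0.45 (SE 0.23) at a level below 1 FPKM in both diets. Slc25a45 had 0.29 (SE 0.13), Slc25a38, a glycine carrier needed for heme synthesis, had 0.18 (SE 0.14), and Slc25a44, a carrier of branched-chain amino acids, had 0.02 (SE 0.11).

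The 11 carriers of cofactors, pyrimidine nucleotides and glutathione held members on both sides of 0. Slc25a40, the less abundant glutathione carrier, had 5.34, 5.55, 5.42 and 5.20 CPM in HFD livers, against 4.16, 2.90, 3.65 and 4.10 CPM in CD livers. The diets did not overlap, and the log2 change was 0.54 (SE 0.15, adjusted p = 0.0541, edgeR), just outside the threshold. Slc25a39, its more abundant counterpart, had -0.17 (SE 0.14). Slc25a42, which carries coenzyme A into the matrix, had 82.4, 75.2, 64.3 and 76.0 CPM in HFD livers, against 93.0, 90.4, 88.0 and 89.9 CPM in CD livers. The HFD livers lay below the CD livers, with a log2 change of -0.28 (SE 0.09, adjusted p = 0.117, edgeR). Slc25a17, which serves peroxisomes and not mitochondria, also had HFD livers below CD livers, at 59.6 ± 1.37 CPM in HFD livers and 69.3 ± 3.35 CPM in CD livers (SD, n = 4 each), and a log2 change of -0.22 (SE 0.08). Slc25a16 had HFD livers above CD livers, with 0.19 (SE 0.09). Slc25a32, a carrier linked to folate and FAD, had 0.45 (SE 0.18), and Slc25a26, the S-adenosylmethionine carrier, had 0.28 (SE 0.17).

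In all, the diets did not overlap for 9 members, or 23.7%, 6 with HFD above CD (Slc25a13, Slc25a16, Slc25a21, Slc25a40, Slc25a48 and Slc25a51) and 3 with HFD below CD (Slc25a17, Slc25a33 and Slc25a42). Over all genes of the table, 14.3% did not overlap.

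The iron importers Slc25a37 and Slc25a28 (mitoferrins) had log2 changes of -0.05 (SE 0.14) and -0.10 (SE 0.11). In the group of uncoupling proteins and their relatives, Ucp2 had 14.8, 17.6, 14.8 and 24.8 CPM in HFD livers, against 19.9, 27.7, 15.1 and 23.6 CPM in CD livers. The diets overlapped (log2 change -0.26, SE 0.21, adjusted p = 0.568, edgeR). HFD liver D, the highest HFD liver for Ucp2, also had the highest sum of Kupffer cell and macrophage markers, at 492.5 CPM. With that marker level as a second term, the log2 change of Ucp2 was -0.31 (adjusted p = 0.268). It was -0.28 (adjusted p = 0.459) with the endothelial term and -0.08 (adjusted p = 0.865) with the stellate term, all by edgeR. Slc25a30 had 7.38, 20.8, 21.3 and 40.8 CPM in HFD livers, against 70.2, 96.5, 34.2 and 10.3 CPM in CD livers. This was the widest spread among the members, with a coefficient of variation of 61.0% in HFD livers and 72.2% in CD livers, and CD liver D lay below 3 of the 4 HFD livers. Its log2 change of -1.23 was the most negative of the family but had an SE of 0.61 and an adjusted p of 0.299 (edgeR). Slc25a14 had 0.06 (SE 0.19) and Slc25a27, the least expressed member, had 0.88 (SE 0.37). Slc25a46, an outer membrane protein of mitochondrial shape control, had 0.02 (SE 0.12).

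At the carrier promoters, the acetylation called between the diets was that of Slc25a27 alone. Of the 35 promoter regions, edgeR's quasi-likelihood test with adjustment over all 57499 regions called 1, or 2.86%, against 2.73% of all promoter regions and 2.39% of all regions. The log2 changes of the 35 regions ran from -0.27 to 0.47 with a median of 0.03, against a median of 0.014 over all promoter regions, and their median SE was 0.1. The diets did not overlap in 11 of the 35 regions, 8 with HFD above CD and 3 with HFD below, against 14.8% of all promoter regions. The called region lay at -129 bases from the Slc25a27 start (chr17:43666553-43667734, mm10) and had 28.4, 27.5 and 25.9 CPM in HFD livers A, B and D, against 16.4, 20.1 and 22.6 CPM in CD livers A, C and D. The log2 change was 0.47 (SE 0.12, adjusted p = 0.0197, edgeR). The adjusted p was 0.126 without HFD liver A, 0.153 without HFD liver B, 0.247 without CD liver A and 0.0827 without CD liver C (edgeR). The authors' annotation also places this region upstream of Cyp39a1, which encodes an oxysterol hydroxylase of bile acid synthesis, so the signal cannot be assigned to either start. Slc25a27 RNA had 1.26, 1.09, 0.579 and 0.943 CPM in HFD livers, against 0.341, 0.346, 0.475 and 0.940 CPM in CD livers (adjusted p = 0.213, edgeR). Cyp39a1 RNA had 36.5, 43.7, 29.1 and 45.2 CPM in HFD livers, against 22.3, 37.7, 22.3 and 27.4 CPM in CD livers (log2 change 0.49, SE 0.19, adjusted p = 0.173, edgeR).

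The promoters of the called RNA members were not called in the fit of all libraries. The Slc25a33 promoter had 109.0, 103.0 and 113.0 CPM in HFD livers, against 116.2, 133.8 and 135.3 CPM in CD livers, with HFD below CD throughout and a log2 change of -0.25 (SE 0.08, adjusted p = 0.0858, edgeR). It was called without HFD liver D (log2 change -0.27, adjusted p = 0.0275) and without CD liver A (log2 change -0.31, adjusted p = 0.0399), and its adjusted p reached 0.465 without HFD liver B (edgeR). The Slc25a48 promoter had a log2 change of 0.07 (SE 0.09, adjusted p = 0.859) and the Slc25a51 promoter 0.00 (SE 0.07, adjusted p = 0.996), both by edgeR. The Slc25a51 promoter was among the stronger ones, at 145.0, 134.8 and 135.2 CPM in HFD livers and 135.3, 137.2 and 142.1 CPM in CD livers, and the diets overlapped. The Slc25a34 promoter had 71.3, 67.6 and 52.0 CPM in HFD livers, against 53.6, 55.7 and 47.2 CPM in CD livers (log2 change 0.29, SE 0.10, adjusted p = 0.111, edgeR), and was called without HFD liver D (log2 change 0.42, adjusted p = 0.000593, edgeR). The promoter regions of Slc25a43 and Slc25a53, members without RNA values, had log2 changes of 0.37 (SE 0.19) for Slc25a43 and of 0.29 (SE 0.45) and -0.01 (SE 0.15) for the 2 regions of Slc25a53.

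**Figure D4:**
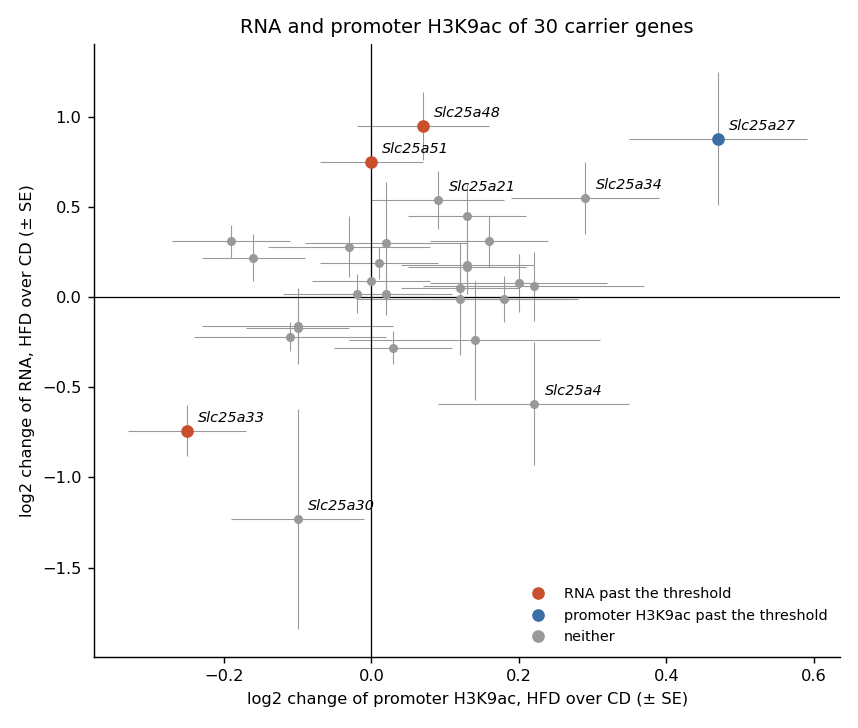
log2 change of RNA against log2 change of promoter H3K9ac for the 30 carrier genes with both values, each with its standard error. Slc25a48 and Slc25a51 are high in RNA with H3K9ac near 0, Slc25a33 is low in both, and Slc25a27 is high in both with a wide RNA error.

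Across the 30 genes, taking the region with the most signal for each, 20 had the same sign of change in both assays. Spearman's rho of the log2 changes was 0.23 and Pearson's r was 0.4, given as descriptions over genes that share the same libraries. The levels in CD livers, in FPKM for RNA and CPM for the promoter region, had a Spearman's rho of 0.67. The CPM of a region is not divided by its length, which ran from 240 to 10493 bases.

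A further 159 regions had a member as the nearest start site but their centre more than 1000 bases from it. Of these, 4 were called, all lower in HFD livers, which is 2.52% against 2.28% of all such regions. The 159 include wide regions that cover the start itself, none of them called by edgeR. Their log2 changes were -0.12 (SE 0.07) for Slc25a47, -0.03 (SE 0.07) for Slc25a10, -0.04 (SE 0.09) for Slc25a45 and 0.09 (SE 0.09) for Ucp2. Of the 4 regions, 3 lay upstream of Slc25a33, the member whose RNA was also lower. The region at -15389 bases (chr4:149788912-149790398) had 7.49, 8.17 and 6.15 CPM in HFD livers, against 12.2, 13.9 and 12.1 CPM in CD livers. All HFD livers lay below all CD livers, and the log2 change was -0.80 (SE 0.17, adjusted p = 0.00177, edgeR). The region at -2760 bases (chr4:149775911-149778141) had 12.9, 11.6 and 9.67 CPM in HFD livers, against 14.8, 17.9 and 20.8 CPM in CD livers, with a log2 change of -0.63 (SE 0.15, adjusted p = 0.00741, edgeR). Its adjusted p was 0.0941 without HFD liver B, 0.0526 without CD liver C and 0.112 without CD liver D (edgeR). The region at -21004 bases (chr4:149795022-149795518) was weak, with 0.852, 2.17 and 2.64 CPM in HFD livers, against 3.31, 4.50 and 3.07 CPM in CD livers. Its log2 change was -0.98 (SE 0.28, adjusted p = 0.0422, edgeR), and it lost the call under 8 of 12 other settings, with a log2 change of -0.61 without HFD liver A.

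Most regions on the upstream flank of Slc25a33 had less signal in HFD livers, in the main without passing the threshold. Slc25a33 was the nearest start of 21 regions, of which 16 had a log2 change below 0. Between 2 and 26 kb upstream, a window chosen after the values were seen, lay 13 regions, and 12 of them were below 0, in a range from -0.98 to 0.02. They include the 3 called regions, so the count describes the window and is no separate support. Over all members, 88 of the 159 regions with a centre more than 1000 bases from the start were below 0. The 4 regions still farther upstream and the 2 regions inside the gene body gave no call.

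**Figure D5:**
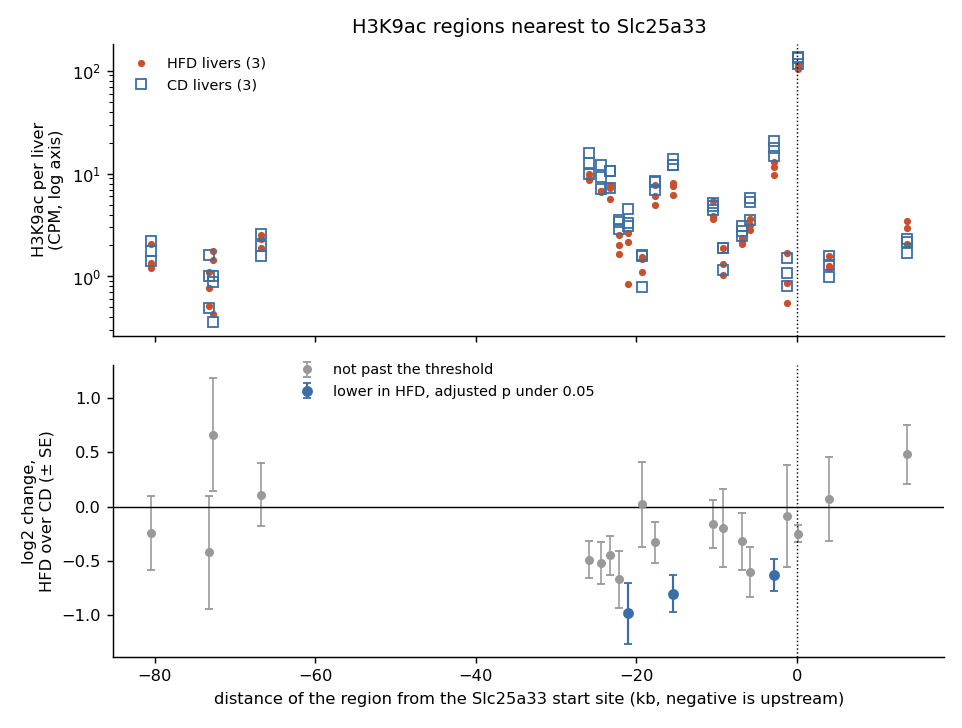
H3K9ac of the 21 regions nearest to Slc25a33 by distance from its start site in kb, as CPM per liver on a log axis (above) and as log2 change, HFD over CD, with its standard error (below). The called regions at -15389, -2760 and -21004 bases lie among a run of upstream regions below 0.

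The remaining called region was nearest to Slc25a42, at -7990 bases (chr8:70219372-70221169), where the authors' annotation places the 3' UTR of Armc6. It had 11.2, 13.3 and 13.1 CPM in HFD livers, against 17.0, 16.8 and 22.97 CPM in CD livers (log2 change -0.59, SE 0.15, adjusted p = 0.0108, edgeR). The adjusted p was 0.125 without HFD liver A, 0.0837 without HFD liver B and 0.207 without CD liver D (edgeR). Of the 14 regions nearest to Slc25a42, 13 had a log2 change below 0, and its promoter had 0.03 (SE 0.08). These 13 include the called region and share the same libraries, so the count is no separate support. Armc6 RNA had a log2 change of -0.16 (SE 0.18, adjusted p = 0.712, edgeR). For comparison, Slc25a51 had 33 regions, 19 above 0 and 14 below, with none called by edgeR and 4 at an unadjusted p under 0.05. The authors' annotation places those from -19354 to -61009 bases in introns of Shb, so their signal cannot be assigned to Slc25a51. Slc25a48 had 5 regions with none called and 0 at an unadjusted p under 0.05. An unadjusted p under 0.05 in edgeR was found for 9 of the 21 Slc25a33 regions and 4 of the 14 Slc25a42 regions.

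Other genes of mitochondrial transport gave a context for these counts, read against the 7.27% called over all genes. Of the carriers set apart by the rule and their relatives, 5 of 7 were measured and none was called by edgeR (1 at an unadjusted p under 0.05, 1 called by DESeq2), with a median log2 change of 0.03. Slc25a15, the ornithine carrier of the urea cycle, had 461 ± 51.0 CPM in HFD livers and 341 ± 44.8 CPM in CD livers (SD, n = 4 each; log2 change 0.44, adjusted p = 0.062, edgeR). The list of carrier import machinery held outer membrane (Tomm) genes as well as genes of the later steps, with values for 16 of 17 symbols. The symbol without values, Timm29, is a newer name of 1810026J23Rik, which was measured. No gene of this list was called by edgeR (1 at an unadjusted p under 0.05, 0 called by DESeq2), and the median log2 change was 0.05. Of other mitochondrial transporters and channels (17 of 18 measured), 2 were called higher and none lower. They were Mpc1, a subunit of the pyruvate carrier, at 82.6 ± 18.6 CPM in HFD livers and 53.0 ± 6.30 CPM in CD livers (log2 change 0.64, SE 0.16, adjusted p = 0.0345), and Sfxn2, a sideroflexin of the inner membrane, at 64.8 ± 8.93 CPM in HFD livers and 46.6 ± 4.26 CPM in CD livers (log2 change 0.48, SE 0.12, adjusted p = 0.0374), all by edgeR with SD and n = 4 each.

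Among 10 regulators of mitochondrial gene expression, all measured, edgeR called 3 higher and none lower, against 7.27% called over all genes. An unadjusted p under 0.05 in edgeR was found for 3 of them, and DESeq2 called 3. Ppara, a fatty acid receptor of the hepatocyte, had 523 ± 61.1 CPM in HFD livers and 264 ± 37.4 CPM in CD livers (log2 change 0.99, SE 0.13, adjusted p = 0.00116). The coactivators Ppargc1a and Ppargc1b also rose, Ppargc1a by a log2 change of 0.98 (SE 0.19, adjusted p = 0.0119) and Ppargc1b by 1.08 (SE 0.21, adjusted p = 0.0117), all by edgeR with n = 4 each. The median over the 10 was 0.07.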

How the data were processed

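Per the file headers, the authors deposited raw read counts per gene, log2 FPKM, and their own log2 fold change with p-value and false discovery rate for RNA, and raw read counts per region, log2 CPM, log2 fold change and p-values for H3K9ac in 1 set of regions. Per the submitters' processing notes, coordinates are in mm10; which aligner, counter, strand setting and peak caller were used is not stated in the labels or headers. The RNA table's 4999 blank lines were left out and 71 H3K9ac regions listed more than once were counted once; 0 value columns were unmatched. FPKM shown here is the antilog of the deposited log2 values, and CPM was computed from counts with TMM factors. The diet comparison used edgeR 4.0.16 (R 4.3.3; filterByExpr, glmQLFit, glmQLFTest, two-sided, diet as the only term; SE from the F statistic), and the deposited tests were not used. The procedure was tested on simulated counts. Alternatives were RLE factors, library totals, DESeq2 1.42.0, filters, a block by letter, leaving out each library, and marker levels as a term. Named are called members, the 8 highest in CD livers, every other member by role except 1 that is not reported here, and called genes of the related lists. Members, lists and windows were chosen with earlier results of these data known. Libraries of a diet are taken as separate mice. No 2 were alike within sampling noise, with a lowest chi-square per degree of freedom of 32.0 in RNA and 1.49 in H3K9ac. This cannot show that they came from separate mice, since repeat libraries of the same liver can also differ by more than that noise.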

Additional observations from a re-analysis of the deposited data

Results flagged for a closer look

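In each diet group of 4 livers, the RNA of each member was examined for a liver far from the other 3, and 7 of 76 such groups had one. Chance alone gives about 1 in 20. HFD liver A was the odd liver for 3 genes: Slc25a48 at 6.84 CPM, below the 11.2 to 12 CPM of the other HFD livers, Slc25a45 at 35.3 CPM, above their 26.6 to 27.1 CPM, and Slc25a17 at 61.6 CPM, above their 58.7 to 59.1 CPM. Without HFD liver A, Slc25a48 was still called, and 6 members were called in all. CD liver C was the odd liver for Slc25a4, at 9.97 CPM against 3.46 to 4.13 CPM in the other CD livers. CD liver B was the odd liver for Slc25a23, at 442 CPM against 421 to 422 CPM, and for Slc25a28, at 13.3 CPM against 15.1 to 15.3 CPM. CD liver A was the odd liver for Slc25a24, at 1.40 CPM against 1.88 to 1.96 CPM.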

How the results depend on the processing

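No called result changed sign under any setting run. Of the values that were not called, 12 RNA changes (36 settings) and 11 promoter changes (20 settings) turned sign, all with a size of at most 0.22 after the turn. With the stellate term this held for Slc25a10 (-0.22, against 0.07), Slc25a24 (0.07, against -0.24), Slc25a5 (-0.04, against 0.17) and Slc25a3 (-0.03, against 0.09). It also held for Slc25a12 (0.12, against -0.01) and Slc25a23 (-0.04, against 0.05), among others. The count of called members, 3 by edgeR, was 6 by DESeq2 (1405 genes called in all), 1 of 22 tested with a filter at the median level (543 genes), which dropped Slc25a33 and Slc25a48, 4 with library totals, and 1 to 6 with single livers left out (478 to 1107 genes). With marker levels as a term, added after the data were seen, it was 6 for endothelium (1549 genes), 8 for Kupffer cells and macrophages (1544 genes) and 2 for stellate cells. Slc25a33 RNA was called in each of the 16 settings that tested it. Library totals left 42.7% of called genes higher, against 49.9%. The count of called promoter regions, 1, was 0 with the median filter and 0 to 3 with single livers left out; called regions, 1372 in all, numbered 798 by DESeq2, 887 with the median filter and 563 to 1862 with livers left out. The Slc25a33 region at -15389 was called in all 12 settings. For equal letters, deviations from the diet means correlated at 0.29, 0.06, 0.23 and -0.22 for A to D in RNA. In H3K9ac they correlated at 0.09 and 0.08 for A and D. No values for unlike letters stand beside these, so they do not settle whether letters pair the samples. With letter as a replicate block, 3 members, 826 genes and 1277 regions were called. Depth limits members under 1 FPKM and weak regions.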
